A study of Homo sapiens with 12 samples.

Results

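RPMI-1640 was compared with MEM as the growth medium of MDA-MB-231, an established line of human triple-negative breast cancer cells with a mesenchymal form. Both media held 10% FBS and the cells were harvested at 90% confluence. Each medium was measured on 2 Illumina HumanHT-12 v4 arrays, which are 4 of the 12 arrays of the study, and all 47231 probes of the deposited log2 normalized values were tested. The other 8 arrays, 2 per group, came from the same line in DMEM with 10% FBS, in MEM with 10% horse serum (HS), in MEM with 0.1% FBS, all at 90% confluence, and in MEM with 10% FBS at 50% confluence. These 8 arrays served to separate what was particular to RPMI-1640 from what set the MEM arrays apart from every other condition. Per the study's methods, all media carried added glutamine, pyruvate, non-essential amino acids, vitamins and antibiotics. The labels call the cells parental, and they do not state whether the 2 arrays of a group came from separate cultures, so the p-values measure the spread between arrays, which may be technical.

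A culture medium sets the supply of glucose, amino acids, vitamins and salts. MEM is a lean formula, while RPMI-1640 is richer in glucose and amino acids, holds less calcium and more phosphate, and was designed for blood cells. Cells read amino acid supply through the kinases GCN2 and mTORC1. Under GCN2 the transcription factor ATF4 is translated and switches on genes of amino acid synthesis and uptake. Sterol supply, most of which reaches cultured cells with the serum, is read by SREBP factors, which drive cholesterol synthesis when sterol is short. Confluent monolayers divide less than sparse ones, so that mitotic genes and the targets of the density-sensed coactivators YAP and TAZ are usual markers of density.

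The defining markers of the line were checked first. Mesenchymal genes were bright on all 12 arrays, with the brightest probe of VIM (vimentin) between 13.66 and 14.38 and CAV1 (caveolin-1) between 10.97 and 12.42 on the log2 scale, whereas the hormone receptors ESR1 and PGR and the basal keratin KRT5 lay between 6.30 and 6.95, near or below the background of 6.90 to 6.99 taken from olfactory receptor probes. The receptor ERBB2 was above background on all 12 arrays, between 7.70 and 8.27. The epithelial marker EPCAM was above it on both MEM arrays, at 7.26 and 7.22, and lower in RPMI-1640, at 6.92 and 6.68 (limma, adjusted p = 0.0169). Between 35.3 and 42.5% of probes lay above background on an array. The correlation of all probes was 0.991 between the 2 RPMI-1640 arrays and 0.938 to 0.940 between RPMI-1640 and MEM, while RPMI-1640 correlated at 0.986 to 0.991 with 50% confluence, at 0.980 to 0.982 with DMEM, at 0.974 to 0.977 with HS and at 0.968 to 0.977 with 0.1% FBS. The MEM arrays thus lay farther from RPMI-1640 than any other group did, although 3 of those groups were grown in MEM.

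In RPMI-1640 against MEM, 9087 probes of 47231 (19.2%) were called at an adjusted p under 0.05, 4449 higher and 4638 lower in RPMI-1640. Among them 2094 probes (4.43% of all) differed by at least 2-fold, 1078 higher and 1016 lower. Of the 9087 probes, in 5004 (55.1%) each of DMEM, HS, 0.1% FBS and 50% confluence differed from MEM in that direction too, so that MEM stood apart from all 5 other groups. That class is 10.6% of all probes, and it held 1905 of the 2094 probes with a 2-fold difference. A further 1684 probes were shared with 3 of the 4 groups, 1228 with 2, 797 with 1 and 374 (4.12%) with none, and no probe of the last class reached 2-fold. The 5 comparisons share the MEM arrays, so these counts partition the called probes and test nothing. Counted the same way for each group, 1120 probes stood apart in 0.1% FBS, 274 in HS, 159 in DMEM, 25 at 50% confluence and 1 (0.00212%) in RPMI-1640.

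**Figure D1:**
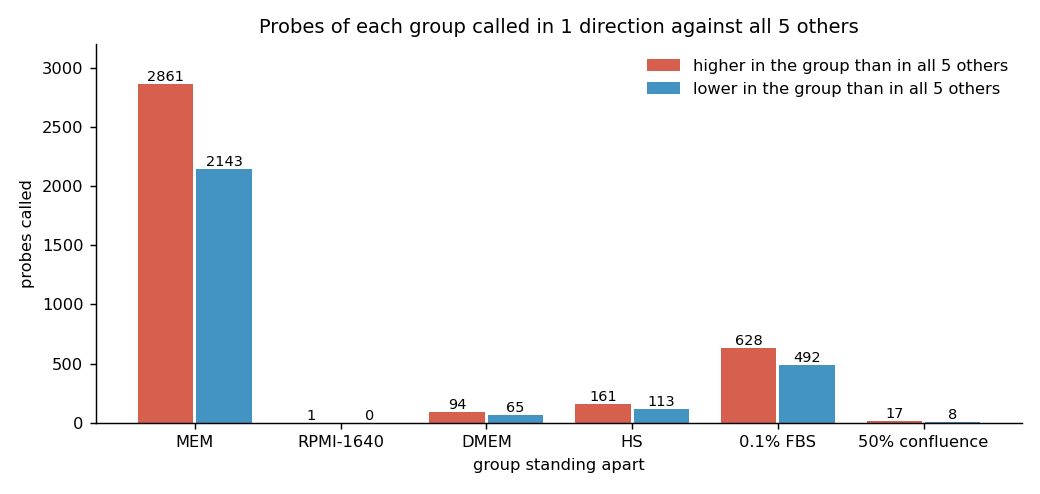
Number of probes, of 47231, called in 1 direction against all 5 other groups, for each of the 6 groups (bars, higher and lower separately, 2 arrays per group). MEM has 2861 probes higher and 2143 lower than every other group, and RPMI-1640 has 1 higher and 0 lower.

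The difference between RPMI-1640 and MEM splits without remainder into the mean of the 4 other groups minus MEM and RPMI-1640 minus that mean. The first part made up a median of 96.0% of the difference over the 9087 called probes and 98.5% over the 2094 probes with a 2-fold difference. The mean of the 4 groups minus MEM was called for 11276 probes (23.9%). RPMI-1640 minus the mean of the 4 was called for 1694 probes (3.59%), 1053 higher (2.23%) and 641 lower (1.36%), with 49 at 2-fold or more. The probes called in 1 direction both against MEM and against the mean of the 4 numbered 698 (1.48% of all, 7.68% of those called against MEM), 515 higher and 183 lower in RPMI-1640. They are described below as the probes where RPMI-1640 lay beyond both.

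**Figure D2:**
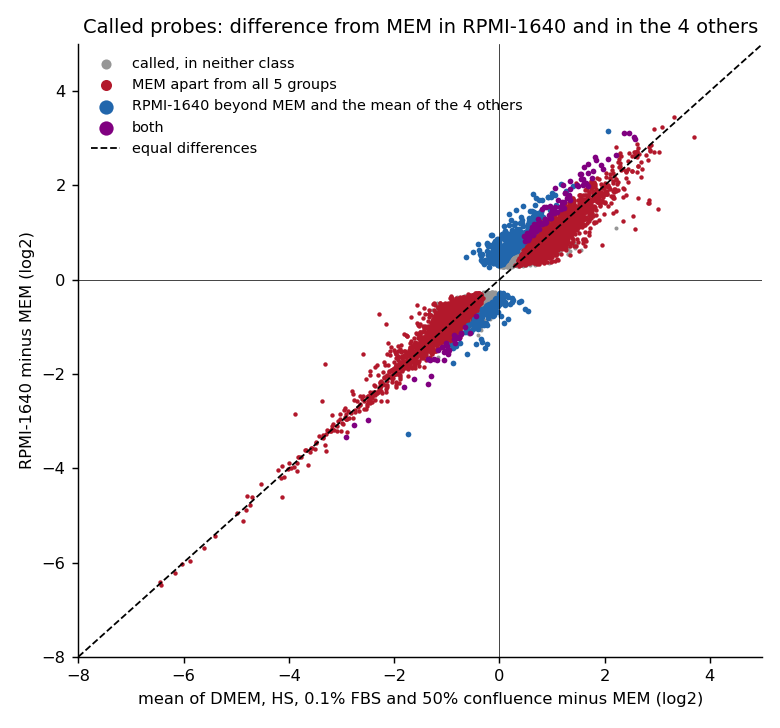
Log2 difference from MEM of the 9087 probes called in RPMI-1640 minus MEM, with the mean of DMEM, HS, 0.1% FBS and 50% confluence on the horizontal axis and RPMI-1640 on the vertical axis. Most points lie near the dashed line of equal differences, as do the 5004 probes where MEM stood apart (red and purple), while the 698 probes where RPMI-1640 lay beyond MEM and the mean of the 4 (blue and purple) lie above the line for higher and below it for lower probes.

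The genes farthest below MEM in RPMI-1640 were mostly at background in every group but MEM. XAGE1A, a cancer/testis antigen encoded on the X chromosome, had a log2 signal of 13.08 and 13.13 on the MEM arrays and of 6.65 and 6.60 in RPMI-1640, at least 72.2-fold lower, and it was between 6.51 and 6.85 on the other 8 arrays. Probes named XAGE1B and XAGE1, copies or names of nearly identical sequence, showed the same pattern and cannot be told apart from it. PRDX1, a peroxidase that removes hydrogen peroxide, was at 12.93 and 13.09 in MEM and at 6.62 and 6.58 in RPMI-1640, at least 67.8-fold lower on 1 probe, and on its brightest probe RPMI-1640 kept a dim signal of 7.18 and 7.00, 62.4-fold below MEM. CYBA, the p22phox subunit of the NADPH oxidases, was at least 36.7-fold lower, with 12.13 on both MEM arrays against 6.41 and 6.47, and LOC653219, a locus not named further here, at least 39.9-fold. Not one of these genes had RPMI-1640 called apart from the mean of the 4 other groups, with differences between -0.07 and 0.03 for XAGE1A, PRDX1 and CYBA. TMSB4X, the actin-sequestering thymosin, stayed well above background, at 14.46 and 14.51 in MEM against 9.24 and 9.49 in RPMI-1640, a difference of -5.12 ± 0.11 (SE, adjusted p = 6.92e-14). STMN3, a microtubule-destabilizing stathmin, was at 11.91 and 11.81 in MEM against 6.94 and 6.86 in RPMI-1640, of which only 1 array was above background, so that its call (adjusted p = 1.54e-13) is given without a fold change.

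Some inflammatory genes belonged to the same class. IL8, the neutrophil-attracting chemokine also known as CXCL8, had 2 probes. The brighter of them read 11.81 and 11.56 in MEM and 6.92 and 7.22 in RPMI-1640, 24.5-fold lower (adjusted p = 4.75e-11), and the other was 9.01-fold lower. In the 4 other groups the brighter IL8 probe lay between 7.18 and 8.15. Among 23 measured genes of inflammatory chemokines and cytokines, 11 were called lower and 2 higher in RPMI-1640 than in MEM, where 11.2% of all 31334 symbols were lower and 10.6% higher, and in 9 of the 11 and both of the 2 MEM stood apart from all groups. On both arrays of at least 1 group 15 of the 23 were above background, and 15039 of the 31334 symbols. Shares over all symbols, here and below, thus include many genes at background, while most lists hold few of them. The list's median difference was -0.23, against 0 over all symbols. IL1B (interleukin-1β) was at 9.04 and 9.01 in MEM and below background in RPMI-1640, at least 4.27-fold lower. CCL2, the monocyte-attracting chemokine, went the other way, from 6.99 and 6.96 in MEM to 9.85 and 9.73 in RPMI-1640 (7.05-fold, adjusted p = 1.98e-06). Against the mean of the 4 other groups, 2 members of the list were called lower and 0 higher.

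Genes of the matrix and of its breakdown were lower in RPMI-1640 than in MEM in 13 of 25 measured members, higher in 3, with 12 of the 13 in the class where MEM stood apart (median difference of the list -0.50). Over all symbols 11.2% were lower and 10.6% higher, and in 12.5% MEM stood apart. PLAU, the urokinase that activates plasminogen, read 10.63 and 10.49 in MEM and 6.99 and 6.97 in RPMI-1640, 11.9-fold lower (adjusted p = 1.69e-12). COL5A1, a fibrillar collagen chain, was at least 4.41-fold lower. The plasminogen activator PLAT was higher in RPMI-1640 by 1.90 ± 0.15, and MMP3 (stromelysin-1) by 2.25 ± 0.12, from 7.42 and 7.40 in MEM to 9.55 and 9.76. MMP3 was 1 of 2 members called above the mean of the 4 other groups (0.70 ± 0.10, adjusted p = 0.000973).

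YAP/TAZ targets were lower in 12 of 22 measured members, higher in 2, and in all 12 MEM stood apart. For this list and the next, 11.2% of all symbols were lower, 10.6% higher, and MEM stood apart in 12.5%. CTGF, a matricellular growth factor and the usual readout of YAP, was at 10.95 and 10.97 in MEM and at 7.78 and 7.81 in RPMI-1640, 9.01-fold lower (adjusted p = 2.7e-10). It was the 50% confluence arrays, at 8.46 and 8.74, that lay nearest to MEM, and RPMI-1640 was called below them as well (-0.81, adjusted p = 0.0338). CYR61, its close relative, was 3.26-fold below MEM and likewise below 50% confluence (-0.88, adjusted p = 0.027). The receptor kinase AXL read 13.04 and 12.39 in MEM, 11.09 and 11.29 in RPMI-1640 and between 9.75 and 11.25 elsewhere, and it was 1 of 5 members called above the mean of the 4 (0.55 ± 0.14, adjusted p = 0.0381). Of the glutathione and NRF2 list, whose genes answer oxidative and electrophile stress, 10 of 24 were lower and 4 higher, MEM standing apart in 9 of the 10. NQO1, a quinone reductase, was at 12.99 and 12.88 in MEM against 11.04 and 11.15 (-1.84 ± 0.09, adjusted p = 7.14e-10).

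The genes highest over MEM in RPMI-1640 included CDH2, the neural cadherin, which read 7.33 and 7.32 in MEM and 10.33 and 10.81 in RPMI-1640, 9.47-fold higher (adjusted p = 5.4e-11). ITGB5, the integrin β5 chain, was at 9.17 and 9.10 against 12.18 and 12.47 (9.10-fold), and its other probe was 6.14-fold higher. BCYRN1, a small noncoding RNA, was 8.59-fold higher, and FAM84B 8.65-fold. S100A4, a calcium-binding protein linked to metastasis, had 2 probes that disagreed in size. One read 7.90 and 8.09 in MEM and 10.96 and 11.09 in RPMI-1640 (8.15-fold, adjusted p = 1.71e-10), and the other 7.47 and 7.59 against 8.62 and 9.44 (2.83-fold, adjusted p = 0.000433). In DMEM and HS the first S100A4 probe was higher still, between 12.14 and 12.31, and RPMI-1640 was below the mean of the 4 groups by 0.68 ± 0.10 (adjusted p = 0.00192). The probes LOC649143, LOC100130516 and LOC100133583, whose loci are not named further here, completed the 8 genes of this rank, with 11.0-fold, 8.16-fold and 7.90-fold higher signals.

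Markers of another lineage moved with this class. Of 20 measured genes of melanocytes and the neural crest, 12 were called higher and 3 lower in RPMI-1640 than in MEM (median difference 0.82), and in 8 of the 12 MEM stood apart from all groups. Over all symbols 10.6% were higher and 11.2% lower than in MEM. SOX10, the lineage's transcription factor, was at 8.29 and 8.22 in MEM and at 10.73 and 11.05 in RPMI-1640 (6.21-fold, adjusted p = 1.11e-08). TFAP2A was 6.03-fold higher, with 7.45 and 7.48 against 9.79 and 10.32. Against 50% confluence 3 members of the list were called higher by limma and 0 lower (10 and 0 at an unadjusted p under 0.05). Among all 31334 symbols 49 were called higher and 36 lower there (1496 and 1492 unadjusted). SOX9, a factor of the early neural crest and of epithelia, was at least 4.43-fold lower, with 9.18 and 8.97 in MEM. The summed linear signal of the 20 genes was 4627 and 4971 on the MEM arrays, 10635 and 10703 in RPMI-1640 and between 7086 and 26877 on the others. Between 12 and 15 of the 20 were above background on any array, MEM included. Cancer/testis antigens, which are silent in most adult tissues outside the testis and expressed in melanoma and other tumors, were higher in 14 of 27 and lower in 2. MAGEA1 read 8.04 and 7.96 in MEM against 10.87 and 10.74, and CTAG2 8.66 and 8.67 against 11.53 and 11.23. Of the 27, 0 were called by limma against the mean of the 4 other groups, with 3 higher and 2 lower at an unadjusted p under 0.05. On a bulk array, a smaller share of cells of a type and less RNA per cell cannot be told apart, and the part of these lineages in the differences was not tested. The labels give 1 line for all arrays. Whether the cells behind the MEM arrays were in other respects like those of the other groups was not tested, which bears on every difference from MEM given here. The sums of luminal, fibroblast and blood cell lists in RPMI-1640 were 2774 and 2969, 3171 and 3392, and 1927 and 1965, against 2649 and 2726, 1718 and 1784, and 1790 and 1811 in MEM.

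The epithelial and mesenchymal genes that the study chose were compared on the same values. VIM was higher in RPMI-1640 on both probes, by 0.56 ± 0.12 (adjusted p = 0.0023) and 0.61 ± 0.10 (adjusted p = 0.000335). CDH1 (E-cadherin) had 1 probe, at 6.46 and 6.50 in MEM and 6.38 and 6.55 in RPMI-1640, below background on every array. CD44, the hyaluronan receptor, was called on 1 of 3 probes, a dim one (0.34 ± 0.10, adjusted p = 0.0188), while its brightest read 12.48 and 12.42 against 12.76 and 12.76 (adjusted p = 0.0611). CD24, a surface marker of epithelial cells, was at 8.13 and 8.27 in MEM and at 6.56 and 6.59, below background, in RPMI-1640 on 1 probe, at least 2.41-fold lower (adjusted p = 1.07e-08). Its other probe, at 7.03 and 7.00 in MEM, was not called. Actin (ACTB) was called on 1 of 3 probes, with a difference of 0.36 that left the threshold when any of 7 arrays was left out. For the 2 VIM probes, 1 CD44 probe and CDH1, the linear table of the same arrays holds other values, which are given with the closing observations.

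Against 50% confluence, the group nearest to it, RPMI-1640 was called for 104 probes (0.22%), 57 higher and 47 lower, of which 5 reached 2-fold. Against DMEM 2516 probes (5.33%) were called, against HS 3996 (8.46%) and against 0.1% FBS 4027 (8.53%). Of the 698 probes where RPMI-1640 lay beyond MEM and the mean of the 4, 608 were also called against HS, 468 against DMEM, 417 against 0.1% FBS and 9 against 50% confluence. In 217 of them (31.1%) both RPMI-1640 arrays lay outside all 10 other arrays, 153 above and 64 below, a pattern that 3.01% of all 47231 probes showed. The 698 were selected on these same arrays, which raises their share, so that the 2 shares describe the class and test nothing. The median difference of the 698 from the mean of the 4 was 0.48 in size, and 21 reached 2-fold. Without the first RPMI-1640 array the class shrank to 133 probes and the calls against the mean of the 4 from 1694 to 255, and without the second to 468 and 1060.

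The 1 probe that stood apart from all 5 groups belonged to UBE2Z, an E2 enzyme that loads ubiquitin and the ubiquitin-like FAT10. It read 8.59 and 8.35 in RPMI-1640, 7.63 and 7.46 in MEM, 8.07 and 8.03 in 0.1% FBS and between 7.20 and 7.88 in the rest. Both RPMI-1640 arrays were above all others, by 0.93 ± 0.11 over MEM (adjusted p = 1.09e-05) and 0.67 over 50% confluence (adjusted p = 0.0229). The probe is not the brightest of its gene. The other 8 probes called against MEM, the mean of the 4 and 50% confluence in 1 direction, listed here after their values were seen, belonged to KLF9, ARHGEF3, CFLAR, PCDHB4 and LOC100133583 on the higher side and to MYO10, EPHA2 and C3orf31 on the lower. KLF9, a transcription factor induced by glucocorticoids, read 10.27 and 10.45 in RPMI-1640 and 7.83 and 7.79 in MEM, with means of 9.32 at 50% confluence and 10.63 in 0.1% FBS. MYO10, a motor of filopodia, read 7.12 and 7.28 against 8.15 and 8.31 and was below all 10 other arrays.

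MYC, the growth-promoting transcription factor, was low in RPMI-1640. Its brighter probe was at 8.64 and 8.62 in RPMI-1640, at 10.01 and 9.98 in MEM, at 9.05 and 9.02 in DMEM, at 10.11 and 10.11 in HS, at 10.14 and 10.00 in 0.1% FBS and at 9.02 and 8.93 at 50% confluence. Both RPMI-1640 arrays were below the other 10 on this probe. The difference was -1.37 ± 0.09 from MEM (2.58-fold, adjusted p = 1.92e-08), -0.92 ± 0.07 from the mean of the 4 (adjusted p = 9.46e-06), -0.41 from DMEM (adjusted p = 0.0142) and -0.34 from 50% confluence, where it missed the threshold (95% interval -0.53 to -0.15, adjusted p = 0.175). The dimmer MYC probe fell by 1.04 from MEM and by 0.62 from the mean of the 4, but at 7.40 and 7.56 it was not below DMEM at 7.36 and 7.20. GADD45A, a stress-induced inhibitor of growth, was lowest in RPMI-1640 too, at 8.29 and 8.02 against 9.74 and 9.46 in MEM (-1.44 ± 0.20) and 8.45 to 10.63 elsewhere. The host gene of small nucleolar RNAs SNHG5 read 9.60 and 9.99 against 11.98 and 12.02 in MEM, 4.62-fold lower, and MEM stood apart from all groups in it as well. CAPN3, a calcium-activated protease, was 1.20 ± 0.09 below the mean of the 4 and below MEM, at 8.16 and 8.12 against 8.89 and 8.72, with 50% confluence lower still at 7.74 and 7.49. On the higher side CPA4, a secreted carboxypeptidase, read 11.79 and 11.17 against 8.27 and 8.37 in MEM, 8.94-fold higher (adjusted p = 7.39e-10), with 50% confluence at 11.83 and 11.82 and 0.1% FBS at 8.50 and 8.68.

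**Figure D3:**
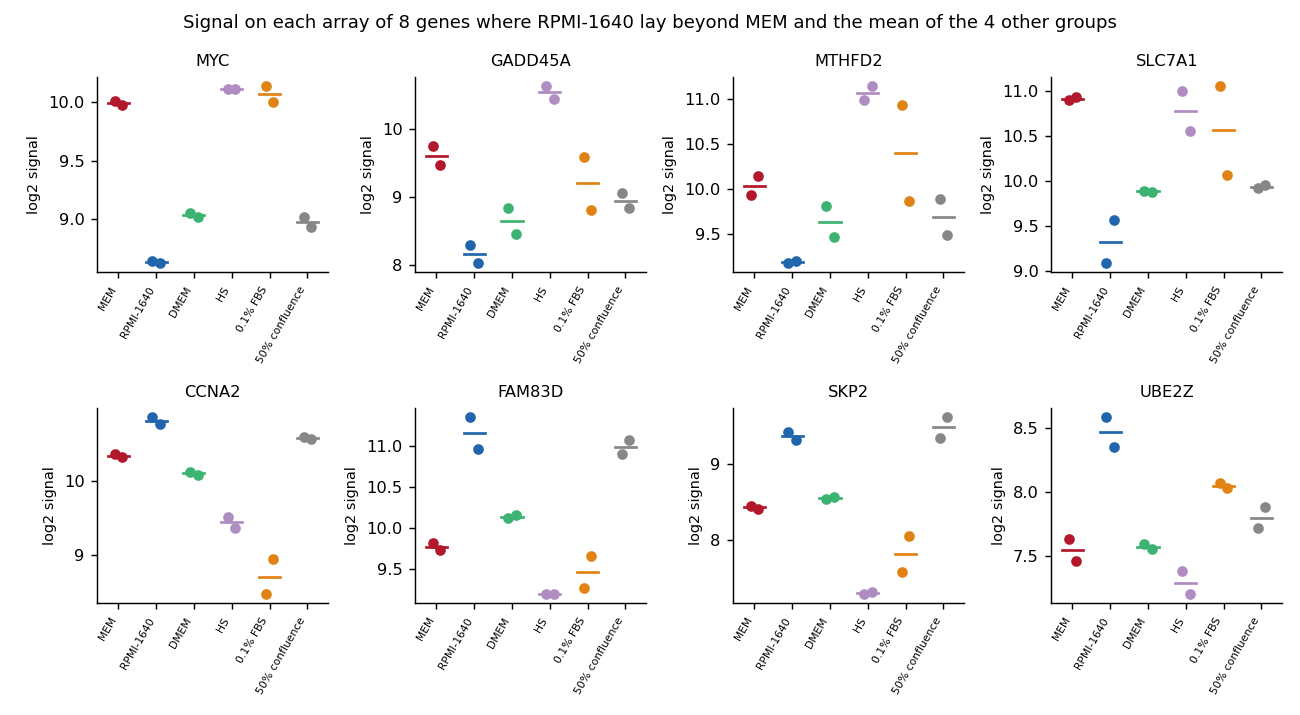
Log2 signal on each of the 12 arrays (points, 2 per group, lines at the group means) of 8 genes where RPMI-1640 lay beyond MEM and the mean of the 4 other groups. In MYC, GADD45A, MTHFD2 and SLC7A1 the RPMI-1640 points are the lowest of all, in CCNA2 and UBE2Z the highest, and in FAM83D and SKP2 they lie with 50% confluence.

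Lists of amino acid uptake and use were mixed, and a few of their genes were lowest in RPMI-1640. Of 18 amino acid transporters, 0 were called higher and 2 lower than the mean of the 4, and 1 higher and 6 lower than MEM. Of 23 enzymes of serine, glycine and one-carbon metabolism, 3 were higher and 2 lower than the mean of the 4, and 5 higher and 5 lower than MEM. Over all symbols 3.98% were called against the mean of the 4 and 21.8% against MEM, both directions together. SLC7A1, the transporter of arginine and lysine, read 9.09 and 9.57 in RPMI-1640, 10.89 and 10.93 in MEM and between 9.88 and 11.05 elsewhere, 2.98-fold below MEM (adjusted p = 9.02e-05) and 0.95 ± 0.18 below the mean of the 4 (adjusted p = 0.00822). SLC3A2, the heavy chain of several such transporters, was at 7.95 and 7.83 on 1 probe against 9.16 and 9.13 in MEM, 2.38-fold lower (adjusted p = 3.09e-05), while its brightest probe, called against MEM, was not called against the 4 (-0.75). MTHFD2, the mitochondrial folate enzyme of one-carbon metabolism, was at 9.18 and 9.21 against 9.93 and 10.14 on 1 probe (-0.84 ± 0.24, adjusted p = 0.0183), a call that ended when either array of MEM or RPMI-1640 was left out. The brightest MTHFD2 probe, at 10.46 and 10.32 against 11.27 and 11.05, was called below MEM as well (adjusted p = 0.0454).

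Genes of the ATF4 program were lower in RPMI-1640 than in the mean of the 4 other groups, though mostly not lower than in MEM. The promoters of 3 members that were called below the mean of the 4 are shown, because they carry the C/EBP-ATF response element that ATF4 binds, written as TGATGNAA and marked in capitals. They are taken from RefSeq on GRCh38.p14, with 30 bases on either side and in the direction of the gene, which for CHAC1 shows the element on the opposite strand. The windows lie upstream of the gene starts, at chr1:212565186-212565253 on the plus strand for ATF3, chr15:40953232-40953299 on the plus strand for CHAC1 and chr7:97872439-97872506 on the minus strand for ASNS.
ATF3: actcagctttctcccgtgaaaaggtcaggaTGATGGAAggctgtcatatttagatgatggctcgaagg
CHAC1: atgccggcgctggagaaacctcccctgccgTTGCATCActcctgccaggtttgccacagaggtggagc
ASNS: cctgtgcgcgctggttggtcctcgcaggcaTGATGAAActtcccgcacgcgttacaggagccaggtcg
Searched on both strands of the 250 bases before the start, the element was in 4 of 18 members of the list with a promoter, in 3 of the 12 of them that were called, and in 3.19% of 27305 promoters. A match of letters is a description and no measure of binding.

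Of 20 measured ATF4 genes, 13 were called below the mean of the 4 other groups in RPMI-1640 and 0 above, where 3.98% of all symbols were called, 1.71% lower and 2.27% higher, and the list's median difference was -0.79 against -0.01 over all symbols. On both arrays of at least 1 group 19 of the 20 were above background, but only 15039 of the 31334 symbols, so the 2 shares are not of equally expressed genes. Against MEM 5 of the 20 were higher, all in the class where MEM stood apart, and 2 lower. DDIT3 (CHOP), a factor of the stress response, was at 7.30 and 7.37 in RPMI-1640, at 7.10 and 7.32 in MEM and at 7.37 and 7.36 at 50% confluence, while it read 8.48 and 8.76 in DMEM, 11.27 and 11.69 in HS and 11.05 and 10.32 in 0.1% FBS. RPMI-1640 thus lay 2.21 ± 0.15 below the mean of the 4 (adjusted p = 3.61e-06) and 1.29 below DMEM (adjusted p = 0.000714). From 50% confluence it differed by -0.03, with a 95% interval of -0.43 to 0.37. GDF15, a stress-induced cytokine, was at 7.26 and 7.17 in RPMI-1640, 7.90 and 7.92 in MEM, 9.08 and 9.10 in DMEM and 6.95 and 7.07 at 50% confluence, with up to 11.51 in 0.1% FBS. ASNS, which makes asparagine, read 9.85 and 10.05 against 9.34 and 9.22 in MEM, 10.55 and 10.76 in DMEM, 12.20 and 11.97 in HS and 12.38 and 11.00 in 0.1% FBS (-1.10 ± 0.22 from the mean of the 4, adjusted p = 0.0109). ATF3, a partner of ATF4 in the response, had 8.47 and 8.32 in RPMI-1640, above MEM at 7.70 and 7.63 (0.73 ± 0.11, adjusted p = 0.000128) and below DMEM at 9.28 and 9.23. The order of ATF3 was therefore MEM, RPMI-1640, DMEM and then HS, and 50% confluence at 8.39 and 8.64 was not called against RPMI-1640 (95% interval -0.36 to 0.12, adjusted p = 0.844). CHAC1, which breaks down glutathione, was at 6.54 and 6.51, below background in RPMI-1640 as in MEM, and its call against the 4 (-0.41 ± 0.08, adjusted p = 0.0125) came with 7.48 and 7.54 in HS. STC2, a secreted glycoprotein of the same program, was an exception, with 10.59 on both RPMI-1640 arrays against 7.92 and 7.98 in MEM (6.21-fold, adjusted p = 4.66e-09) and no call against the 4.
At an unadjusted p under 0.05 limma gave 16 of the 20 lower and 1 higher than the mean of the 4. Against DMEM alone 6 of the 20 were called lower, and against 50% confluence 0 were lower and 1 higher (2 and 2 unadjusted). Without the first RPMI-1640 array 6 of the 13 calls against the mean of the 4 were made, and without the second 8. The arrays in 0.1% FBS stood far apart in this list, with 12.87 and 11.15 for TRIB3, a pseudokinase induced by ATF4.

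Cholesterol synthesis divided the media in another order. Of 25 measured genes of cholesterol synthesis and uptake, 8 were called higher and 6 lower in RPMI-1640 than in MEM, 0 higher and 11 lower than the mean of the 4 (0 and 16 at an unadjusted p under 0.05), and 16 lower and 0 higher than DMEM. Over all 31334 symbols 922 were lower and 904 higher than DMEM, and 10.6% were higher and 11.2% lower than MEM. Against the mean of the 4, 2.27% of symbols were higher and 1.71% lower (2235 and 2190 symbols at an unadjusted p under 0.05). Of the 25 genes, 0 were lower and 1 higher than at 50% confluence (2 and 8 unadjusted), where 36 and 49 of all symbols were called. HMGCS1, which makes the precursor of mevalonate, was at 8.38 and 8.51 in RPMI-1640 and 8.35 and 8.38 in MEM, whereas DMEM stood at 11.09 and 10.96 and 0.1% FBS at 10.31 and 11.23. RPMI-1640 was 2.58 below DMEM (adjusted p = 2.91e-06) and 1.16 ± 0.15 below the mean of the 4 (adjusted p = 0.000735). LSS, which closes the sterol ring, and DHCR7, the last enzyme of the path, were 1.68 and 1.17 below DMEM. FDFT1 (squalene synthase) and SQLE (squalene epoxidase) were 3.43-fold and 2.77-fold above MEM, and in both MEM stood apart from all groups. ACAT2, the thiolase that joins acetyl groups, was below MEM as well, at 9.75 and 9.57 against 10.65 and 10.51 (-0.92 ± 0.12, adjusted p = 2.04e-05), and 1.37 below DMEM, with 50% confluence lower still at 9.46 and 9.50. SC5DL, a desaturase of sterols, followed, at 7.92 and 8.08 against 8.48 and 8.42 in MEM and 9.17 and 9.06 in DMEM. The sterol regulatory element, searched as TCACNCCAC, was in the window of 1 of 18 genes of the list and in 0.875% of all promoters.

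Fatty acid genes were lower than the mean of the 4 in 7 of 18 measured members and higher in 0. Against MEM 4 were higher and 7 lower, and against 50% confluence 2 higher and 0 lower (4 and 1 at an unadjusted p under 0.05). Over all symbols 1.71% were lower and 2.27% higher than the mean of the 4, and 11.2% lower and 10.6% higher than MEM. Of the 31334 symbols, 49 were higher and 36 lower than at 50% confluence. ELOVL1, which lengthens saturated fatty acids, was at 8.35 and 8.31 in RPMI-1640, below all 10 other arrays and 1.44-fold below MEM (adjusted p = 0.00524), and no other group was called against MEM in its direction. ACACA, the carboxylase that commits acetyl groups to fatty acids, was also below all 10 others, at 8.46 and 8.55, but was not called against MEM at 8.71 and 8.70 (adjusted p = 0.201). Its dimmer probe, at 8.16 and 8.31 against 8.62 and 8.79, was called (-0.47 ± 0.10, adjusted p = 0.00332). FADS1, a desaturase, read 8.75 and 8.76 against 10.44 and 10.42 in MEM, with the 4 other groups below MEM too and RPMI-1640 below their mean by 0.43 ± 0.09, and FABP5, a carrier of fatty acids, was 3.76-fold below MEM in the same way. With 0.1% FBS left out of the mean, 6 cholesterol genes and 3 fatty acid genes were called lower. With the first RPMI-1640 array left out 6 and 0 were called, and with the second left out 8 and 2.

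Of the 41 lists counted, that of mitotic genes had the most members called above the mean of the 4. The promoters of 3 members, shown because they hold the cell cycle homology region at which the DREAM complex represses mitotic genes in resting cells, carry its letters TTTGAA in capitals. The windows are RefSeq GRCh38.p14, upstream of the gene start on the plus strand, chr1:43358886-43358951 for CDC20, chr15:69414264-69414329 for KIF23 and chr15:40161016-40161068 for BUB1B, where the last is cut at the gene start.
CDC20: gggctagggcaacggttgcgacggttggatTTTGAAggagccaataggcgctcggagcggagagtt
KIF23: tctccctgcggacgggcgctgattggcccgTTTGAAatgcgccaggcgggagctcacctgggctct
BUB1B: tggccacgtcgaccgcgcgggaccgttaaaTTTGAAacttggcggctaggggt
On both strands of the 250 bases before the start, TTTGAA was in 10 of 19 members with a promoter and in 13.6% of all promoters, and CCAAT, the box bound by NF-Y, in 16 of 19 and in 33% of all. Each was counted on its own, so the 2 may overlap.

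Of 25 measured genes of G2/M and mitosis, 16 were called above the mean of the 4 in RPMI-1640 and 0 below (19 and 0 at an unadjusted p under 0.05), with a median difference of 0.56, and 13 were above and 5 below MEM. Over all symbols 2.27% were above the mean of the 4 and 1.71% below, and 10.6% were above MEM and 11.2% below. The class beyond both held 10 of them, among the 322 symbols on its higher side, where it holds 1.51% of all symbols. CCNA2 (cyclin A2) read 10.86 and 10.76 in RPMI-1640, above all others, 10.36 and 10.32 in MEM, 10.12 and 10.08 in DMEM, 10.59 and 10.56 at 50% confluence, 9.52 and 9.37 in HS and 8.48 and 8.95 in 0.1% FBS. It was 0.47 ± 0.12 above MEM (adjusted p = 0.0117) and 1.10 ± 0.10 above the mean of the 4 (adjusted p = 3.6e-05), and the call against MEM ended without either MEM array or without the first RPMI-1640 array. TPX2, a spindle assembly factor, was at 12.01 and 11.50 against 11.17 and 10.82 in MEM and at most 11.38 elsewhere. TTK, the spindle checkpoint kinase, read 10.51 and 10.36 against 9.26 and 9.30 in MEM (2.23-fold, adjusted p = 8.3e-05) and at most 10.19 elsewhere. KIF23, a motor of the cleavage furrow, was at 10.58 and 10.51 against 9.54 and 9.62. CCNA2, UBE2C and TPX2 were among the 374 probes that no other group shared. FAM83D, which brings a kinase to the spindle, was 1.21 ± 0.11 above the mean of the 4, at 11.36 and 10.97 against 9.82 and 9.74 in MEM, with 10.91 and 11.08 at 50% confluence.

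The 5 mitotic genes below MEM went with a class in which MEM stood apart, and they included AURKB, the kinase of the chromosomal passenger complex, at 10.13 and 9.70 against 11.04 and 11.19 (-1.20 ± 0.18, adjusted p = 0.000105), and CDC2 (CDK1), at 10.69 and 10.55 against 11.25 and 11.44. Of 27 genes of G1/S and DNA replication, 8 were below MEM and 1 above, while 9 were above the mean of the 4 and 0 below. Over all symbols 11.2% were below MEM and 10.6% above, and 2.27% were above the mean of the 4 and 1.71% below. MCM5, of the replicative helicase, was 2.86-fold below MEM, at 10.10 and 9.65 against 11.54 and 11.24. CCNE2 (cyclin E2) was below MEM by 0.94 ± 0.21 and above the mean of the 4 by 1.22 ± 0.17. A probe of MCM7, of the same helicase, was above both, at 10.57 and 10.17 against 9.64 and 9.23 in MEM, while the brightest MCM7 probe was called against neither. SKP2, which marks the inhibitor p27 for destruction, read 9.42 and 9.32 against 8.44 and 8.41 in MEM, with 50% confluence at 9.34 and 9.62. DONSON, a protein of the replication fork, was 2.42-fold above MEM. The SKP2 and DONSON probes given are not the brightest of their genes.
By limma 0 mitotic genes were called against 50% confluence, with 4 higher and 1 lower at an unadjusted p under 0.05, and for KIF23 that difference had an interval of 0.02 to 0.72. When 0.1% FBS was taken out of the mean, 10 of the 25 mitotic genes and 3 of the 27 G1/S genes were called higher. Without the first RPMI-1640 array 4 and 2 were called, and without the second 12 and 8, while leaving out either array in 0.1% FBS raised the G1/S count to 14 or 21.

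**Figure D4:**
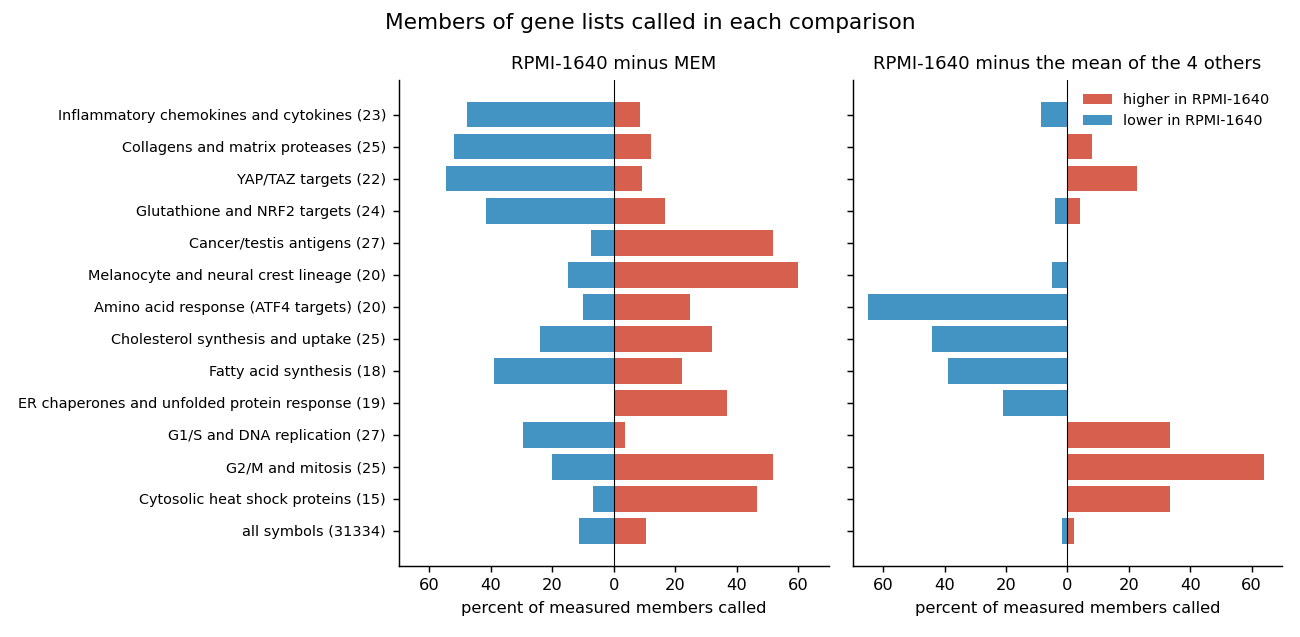
Percent of measured members (number in parentheses) of 13 gene lists and of all symbols that were called higher (right of 0) or lower (left of 0) in RPMI-1640 minus MEM (left panel) and in RPMI-1640 minus the mean of the 4 other groups (right panel). The first 6 lists have 10 or more members called in 1 direction in the left panel and at most 5 in the right, while amino acid, sterol and mitotic lists have 13, 11 and 16 members called in the right panel.

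Chaperones were counted by compartment, and the difference between the lists was not tested. Among all symbols 2.27% were called above the mean of the 4 and 1.71% below, and 10.6% above MEM and 11.2% below. Of 15 cytosolic heat shock genes, 5 were above the mean of the 4 and 0 below, among them HSPA1A and HSPA1B, near-identical copies that the probes may not separate, at 0.82 ± 0.13 and 0.91 ± 0.22, and the co-chaperone DNAJB1 at 0.72 ± 0.12. None of those 3 was called against MEM, although 7 of the 15 were higher and 1 lower than MEM. Of 19 genes of the endoplasmic reticulum, 4 were below the mean of the 4 and 0 above, namely DNAJB9, DNAJB11, HERPUD1 and XBP1. HERPUD1, of the pathway that degrades misfolded proteins, was above MEM by 1.68 ± 0.21, DNAJB11 by 0.78 ± 0.24 and XBP1 by 0.60 ± 0.19, and 7 of the 19 were above MEM and 0 below in all, so that against MEM the calls of both lists were mostly higher. These counts were small and moved between 1 and 7 for the first list and between 2 and 12 for the second as single arrays were left out.

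Some of the largest differences from the mean of the 4 followed the ribosomal RNA probes. The probe LOC100008588, whose gene ID is that of an 18S ribosomal RNA, read 12.90 and 12.64 in RPMI-1640, between 12.31 and 13.28 in 0.1% FBS and at 50% confluence, and between 10.45 and 11.34 in MEM, DMEM and HS. A 28S probe of LOC100008589 ran the other way, at 8.79 and 9.42 in RPMI-1640, between 8.84 and 9.96 in 0.1% FBS and at 50% confluence, and between 11.63 and 12.40 in the other 3 groups. A second 28S probe did not split the arrays this way, with 9.24 and 9.72 in RPMI-1640 and 10.69 and 10.66 in MEM alone high. The same 6 arrays were apart from the other 6 for NOMO1 and NOMO3, near-identical genes of a membrane protein complex that the probes may not separate, for NUP155, of the nuclear pore, and for the ribosomal protein RPL10A. NOMO1 was at 10.01 and 9.55 in RPMI-1640 and between 9.37 and 9.93 in 0.1% FBS and at 50% confluence, against 7.31 to 8.53 elsewhere. RPL10A was at 9.34 and 9.68 in RPMI-1640, and between 10.68 and 11.58 in MEM, DMEM and HS. Calls of NOMO1, NOMO3, NUP155, DDB1, RPL10A, LOC388556 and of both ribosomal RNA probes ended when RPMI-1640 was set against 0.1% FBS and 50% confluence only. LOC653994 did not share the split, with 7.94 and 7.92 in 0.1% FBS against 9.43 and 8.94 in RPMI-1640. The probes given for NOMO1, NUP155, DDB1, RPL10A, LOC388556 and LOC653994 are not the brightest of their symbols. The labels do not record which arrays shared a BeadChip or an RNA preparation. The part of the ribosomal RNA split in the other differences from MEM and from the mean of the 4 was not tested.

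**Figure D5:**
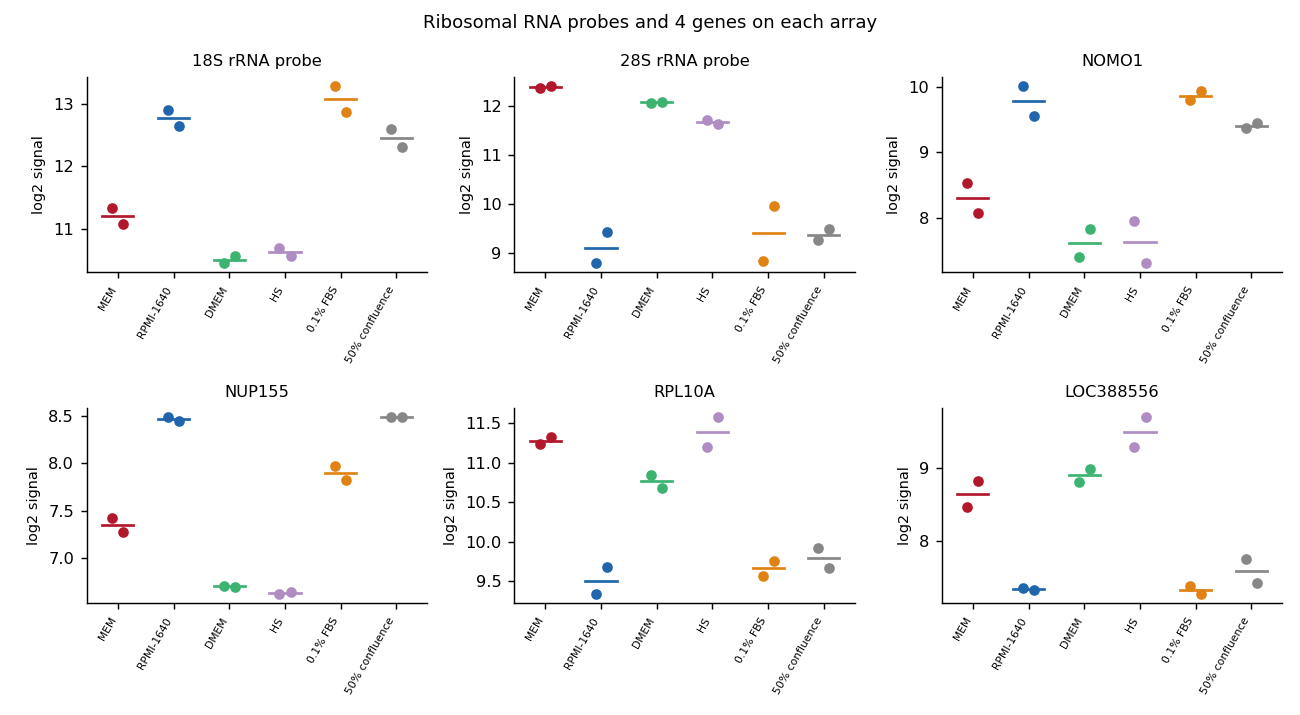
Log2 signal on each of the 12 arrays (points, 2 per group, lines at the group means) of an 18S and a 28S ribosomal RNA probe, NOMO1, NUP155, RPL10A and LOC388556. In all 6 panels the points of RPMI-1640, 0.1% FBS and 50% confluence lie on one side and those of MEM, DMEM and HS on the other.

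With 0.1% FBS and 50% confluence as the only partners, RPMI-1640 beyond both held 349 probes in place of 698, and with DMEM and HS as the only partners 1365. Of the ATF4 genes 7 were called lower against the first pair and 14 against the second, of the cholesterol genes 6 and 13, of the mitotic genes 16 and 13 higher, and of the G1/S genes 12 and 6 higher.

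Some other lists also had members called against the mean of the 4, where 3.98% of all symbols were called. Of 19 TGF-beta targets and ID genes, 5 were higher and 0 lower, against 2 higher and 7 lower than MEM. ID3, an inhibitor of basic helix-loop-helix factors, was 1.54 ± 0.08 above the mean of the 4 and yet below MEM, at 10.02 and 10.09 against 10.83 and 10.75, and TGFBI, a matrix protein named for its induction by TGF-beta, was 1.03 ± 0.09 above that mean and 2.84 below MEM. THBS1 (thrombospondin-1) was above both, at 11.79 and 11.61 against 10.20 and 9.83 in MEM. Of 18 genes of ERK pathway feedback, 4 were higher and 3 lower than the mean of the 4, and 4 higher and 8 lower than MEM. SPRY4, a feedback inhibitor of receptor kinase signalling, was at 7.06 and 7.02 against 9.31 and 9.32 in MEM, and EPHA2 and MYC were the other members below both. Of 20 p53 targets, 4 were lower and 0 higher than the mean of the 4, among them CDKN1A (p21), at 9.40 and 9.49 against 11.58 and 11.38 in MEM, and BAX, an effector of apoptosis, at 7.76 and 7.43 against 10.58 and 10.56. Of 12 glucose-sensing targets of MondoA and ChREBP, 3 were higher and 1 lower. TXNIP, which restrains glucose uptake, was 1.52 ± 0.09 above the mean of the 4 but below MEM, at 10.45 and 10.81 against 12.53 and 12.31. Of 13 metallothioneins and zinc genes, 3 were higher and 0 lower, namely MT1A, MT1E and MT2A, closely related genes that the probes may not separate. Each of these counts rests on few genes, and against 50% confluence the 5 lists had 2 calls higher and 1 lower in all.

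Of 24 genes of glycolysis and glucose uptake, 2 were higher and 2 lower than that mean, and 5 higher and 4 lower than MEM. None of 30 genes of oxidative phosphorylation was above the mean of the 4 and 2 were below, and of 24 genes of calcium entry and pumps 1 was lower and 0 higher. Ribosome biogenesis genes counted 1 higher and 1 lower of 25, and interferon-stimulated genes 0 higher and 2 lower of 25, although 10 of these were below MEM and 3 above. The hypoxia list had 8 of 19 genes below MEM, 7 of them in the class where MEM stood apart, and 1 below the mean of the 4. Over all symbols 11.2% were below MEM and 10.6% above.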

How the data were processed

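Total RNA from cultured MDA-MB-231 cells was hybridized to 12 Illumina HumanHT-12 v4 arrays, 2 for each of 6 conditions. Groups were taken from the sample labels, and the members and gene lists were chosen with earlier results of these data known. The authors deposited log2 values that had been quantile-normalized across arrays, per the methods with limma after BeadStudio export, and the same signals as linear intensities. Raw signals, detection p-values and bead counts were not used here, and the number of arrays limits the precision. Quantile normalization gives every array the same distribution, so that a shift of most genes together cannot be seen. Of the 47231 probes, 3270 carry no gene name and 54 have names turned into dates, which were kept as they stand.

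The log2 values were fitted with limma 3.58.1 in R 4.3.3, with 1 mean per group over all 12 arrays (6 residual and 8.96 prior degrees of freedom). Two-sided moderated tests were adjusted by Benjamini-Hochberg over all probes and called at 0.05. Errors in the text are SE of the log2 difference, n = 2 arrays per group. Per array, background was set at the 95th percentile over 463 probes of olfactory receptors, and a fold change against a group below it on both arrays is given as a lower bound taken at background. Lists were counted on the brightest probe of each of 31334 symbols, with 41 lists written from general knowledge. Named genes are IL8, S100A4, VIM, CDH1, CD44, CD24 and ACTB, the 8 largest differences each way where MEM stood apart, all where RPMI-1640 stood apart, the 12 largest each way beyond both, and called or contrasting members of lists. Promoters came from RefSeq GRCh38.p14. Of 9823 symbols of the LOC form, 3013 matched a RefSeq gene ID. A few genes are not reported here. The fit was also run on simulated arrays with a common mean per probe for all groups and some probes changed in RPMI-1640 only. A MEM group apart from the rest, as in these data, was not simulated. Alternatives were other scalings, the linear and series tables, filters, 1 probe per symbol, trend and robust variance, a replicate block, single arrays left out and the methods' t-test. Figures used matplotlib 3.10.9.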

Additional observations from a re-analysis of the deposited data

Results flagged for a closer look

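The linear table holds other values than the log2 table for 8 probes, some of which are given here, while all other probes agree within 5e-09. In the linear table RPMI-1640 minus MEM is -2.70 for CDH1 and -0.02 for the CD82 probe ILMN_1662973, 2.67 and 1.73 for the 2 VIM probes, 0.56 for HLA-DRA, 0.61 for TNFRSF14 and 0.45 for a CD44 probe. In the log2 table the same probes stand at -0.02 (CDH1), -2.70 (CD82), 0.56 and 0.61 (VIM), 2.67 (HLA-DRA), 1.73 (TNFRSF14) and 0.03 (CD44). The second probes of CD82 and HLA-DRA, the same in both tables, stand at -2.60 and 2.62, near the log2 table's values for those genes. The origin of the difference was not tested.

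Opposite calls against MEM in RPMI-1640 and in DMEM, with a called difference between the 2 media, drew attention to 8 named genes. RPMI-1640 minus DMEM was 2.17 for NOMO1, 2.27 for LOC100008588, 1.90 for DDB1, 1.77 for NUP155 and 1.66 for LOC653994, all above MEM in RPMI-1640 and below it in DMEM. It was -1.91 for CAPN3, -1.37 for ACAT2 and -1.12 for SC5DL, below MEM in RPMI-1640 and above it in DMEM.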

How the results depend on the processing

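No called direction reversed under any alternative in 80 single-gene results, although some calls were lost and a few gained. Most of these genes were chosen for large differences on the same arrays, and several alternatives use nearly the same values. A reversal was thus unlikely from the start. Sign changes of differences without a call were not counted. With 1 array left out, RPMI-1640 minus MEM called between 6614 and 9574 probes, MEM stood apart in 3693 to 5013, RPMI-1640 in 0 to 11, RPMI-1640 minus the mean of the 4 called 255 to 2387, the mean of the 4 minus MEM 8084 to 11518, and 133 to 958 lay beyond both. The low values of 255 and 133 came without the first RPMI-1640 array, and a lone array was assumed to vary like the other groups. The methods' t-test on the 4 arrays called 603 probes at its threshold and 62 after Benjamini-Hochberg adjustment, and a 2-fold limit, alone or with the adjusted p, 2094. The count of probes where RPMI-1640 stood apart was 0 with 1 probe per symbol and with trend and robust variance. Replicate numbers did not pair the arrays, with correlations of deviations from -0.06 to 0.13 over 15 pairs of groups. With the replicate block 9177, 5085, 2, 1793, 11370 and 736 probes were called in the order above. Chosen after seeing the data, 0.1% FBS and 50% confluence as partners gave 1036 calls and 349 beyond both, and DMEM and HS 3556 and 1365. Median centring, upper-quartile scaling, the other tables and the background filter left all counts within 1.5 times. The values were already quantile-normalized and the tables differ in few probes, so the scalings and tables could hardly move the counts.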
